A study of Homo sapiens with 6 samples.

Results

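The plasminogen activators and serpins examined here are 9 genes, taken by symbol from the 64253 genes counted in each library. They are PLAU, PLAT and PLAUR of the plasminogen activation system, SERPINE2, and the clade B serpins SERPINB1, SERPINB2, SERPINB5, SERPINB7 and SERPINB8. All 9 symbols matched 1 gene each, and all 9 had enough reads to be tested. The libraries came from PC-3, a human prostate cancer cell line that grows without androgen. In 3 samples the cells stably carried a lentiviral shRNA against CdGAP (shCdGAP, CdGAP-depleted cells), and in 3 samples a control shRNA (shCon). CdGAP, a GTPase-activating protein for Rac1 and Cdc42, is encoded by ARHGAP31. According to the methods, CdGAP-depleted PC-3 cells were selected with puromycin and grown from single cells, so the shCdGAP group may be 1 clone. Clonal origin and depletion of CdGAP cannot be told apart in this design.

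Plasminogen activators are secreted serine proteases that cut plasminogen into plasmin, a protease that dissolves fibrin, degrades matrix proteins and releases growth factors. PLAU encodes urokinase (uPA), which binds a receptor on the cell surface encoded by PLAUR, and PLAT encodes tissue-type plasminogen activator (tPA). Serpins are protease inhibitors that trap their target in an irreversible complex, although some members, such as SERPINB5, do not inhibit proteases. Clade B serpins lack a classical signal peptide and are found largely inside cells. The urokinase system has long been studied in prostate cancer as part of matrix breakdown during invasion.

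The libraries held 33182796 to 43154039 counted reads. ARHGAP31 had 1072, 1181 and 926 reads in shCdGAP replicates 1, 2 and 3 and 2472, 2557 and 1923 in the shCon replicates. On the log2 scale shCdGAP minus shCon was -1.14 ± 0.0409 (SE), with a Benjamini-Hochberg adjusted p = 8.75e-08 in the quasi-likelihood test of edgeR, which gave every adjusted p here, and its RNA remained detectable in every shCdGAP library. The keratin genes KRT8 and KRT18 stood between 184 and 299 CPM (reads of the gene scaled to a common library size) in every library. KLK3, which encodes the prostate-specific antigen, had no read. Of the fibroblast markers, COL1A1, LUM and PDGFRB rose, 3 of 5, COL1A2 did not pass, and DCN, with at most 5 reads, was not tested. The summed fibroblast list lay between 334 and 343 CPM in shCdGAP and between 301 and 307 in shCon libraries, and its part in the results was not tested. PTPRC, CD3E, HBB and VWF, markers of blood cells and endothelium, had at most 1 read in any library. CD68 rose from 0.418 ± 0.0347 to 1.23 ± 0.116 CPM (SD, n = 3 each), and PECAM1 and TEK did not pass. The endothelial gene CDH5 had 2, 3 and 2 reads in shCdGAP and 9, 10 and 7 in shCon libraries and was not tested. PECAM1 fell without shCdGAP replicate 2, the library described next, with a log2 fold change of -1.14 (adjusted p = 1.49e-10). Of the epithelial genes EPCAM rose, with a log2 fold change of 1.35 (adjusted p = 5.02e-08), and CDH1 did not pass (-0.72, adjusted p = 0.0636). CDH1 had 29.6, 50.5 and 25.4 CPM in shCdGAP and 56.6, 58.4 and 59.8 CPM in shCon libraries, and without shCdGAP replicate 2 it fell with a log2 fold change of -1.09 (adjusted p = 9.45e-18). The part of these genes in the results was not tested. In bulk RNA, fewer cells expressing a gene and less of its RNA per cell cannot be told apart. Replicate 2 of shCdGAP stood apart from the other shCdGAP libraries. The chi-square per degree of freedom, near 1 for counting noise alone, was 29.3 and 35.8 against replicates 1 and 3, while all other pairs within a group lay between 2.67 and 7.28. Where a call of a named gene changed without this library, the value without it is given as well.

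The promoters of 5 members are shown because they set PLAU, SERPINB2 and SERPINB7, which are 3 of the 5 members that rose, beside SERPINB5 and SERPINB8, which lie in the same gene cluster as SERPINB2 and SERPINB7 and did not pass the test. Each is the RefSeq window (GRCh38.p14) of 250 bases before and 50 bases from the annotated start. Only 1 annotated start was used for each gene. The counted genes PLAU and SERPINB2 begin before their windows, at 73909177 and 63871692, so any start outside the windows was not examined. Capitals mark matches, on either strand, to the AP-1 motif TGANTCA or to the TATA motif TATAAA.

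PLAU, chr10:73910360-73910659, plus strand: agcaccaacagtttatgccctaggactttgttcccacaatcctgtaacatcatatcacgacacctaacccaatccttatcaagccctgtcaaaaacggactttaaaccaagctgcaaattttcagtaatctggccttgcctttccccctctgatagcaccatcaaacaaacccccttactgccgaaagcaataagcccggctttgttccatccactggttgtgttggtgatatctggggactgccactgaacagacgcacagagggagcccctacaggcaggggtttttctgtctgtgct
SERPINB2, chr18:63887455-63887754, plus strand: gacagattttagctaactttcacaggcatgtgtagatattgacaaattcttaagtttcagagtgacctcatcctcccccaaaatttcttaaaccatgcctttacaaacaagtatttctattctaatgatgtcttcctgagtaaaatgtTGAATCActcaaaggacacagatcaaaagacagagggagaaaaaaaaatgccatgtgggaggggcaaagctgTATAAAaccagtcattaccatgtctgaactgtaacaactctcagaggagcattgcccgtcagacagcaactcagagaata
SERPINB7, chr18:63752807-63753106, plus strand: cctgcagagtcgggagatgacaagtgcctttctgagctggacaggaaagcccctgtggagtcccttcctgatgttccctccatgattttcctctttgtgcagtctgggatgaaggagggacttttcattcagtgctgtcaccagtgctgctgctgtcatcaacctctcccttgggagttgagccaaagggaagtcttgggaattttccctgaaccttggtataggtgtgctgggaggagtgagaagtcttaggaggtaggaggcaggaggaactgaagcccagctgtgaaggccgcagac
SERPINB5, chr18:63476708-63477007, plus strand: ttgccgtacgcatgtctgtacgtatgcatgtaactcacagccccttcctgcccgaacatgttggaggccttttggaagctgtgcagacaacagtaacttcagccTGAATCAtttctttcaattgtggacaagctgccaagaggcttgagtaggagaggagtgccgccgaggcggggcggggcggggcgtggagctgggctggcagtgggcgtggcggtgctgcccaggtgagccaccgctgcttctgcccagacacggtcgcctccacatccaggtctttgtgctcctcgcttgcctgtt
SERPINB8, chr18:63969831-63970130, plus strand: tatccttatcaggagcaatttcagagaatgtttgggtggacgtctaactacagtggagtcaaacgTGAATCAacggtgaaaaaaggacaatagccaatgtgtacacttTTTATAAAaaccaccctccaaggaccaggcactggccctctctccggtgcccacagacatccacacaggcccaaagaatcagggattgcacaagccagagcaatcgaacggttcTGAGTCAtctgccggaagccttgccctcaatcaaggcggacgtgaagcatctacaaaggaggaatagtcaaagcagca

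SERPINB2 held 1 AP-1 match and a TATA match 30 bases before the start. The windows of PLAU and SERPINB7 held neither motif. SERPINB5 held 1 AP-1 match, and SERPINB8 held 2, besides a pair of overlapping TATA matches about 140 bases before the start. Among the promoters of the members that are not printed, that of PLAUR held 1 AP-1 match, and those of SERPINE2, which rose, and SERPINB1 held neither motif. Of 27305 promoters of the same length, 7.76% held the AP-1 motif and 12.0% the TATA motif. Of the examined members that rose, only SERPINB2 thus held an AP-1 match, while PLAUR, SERPINB5 and SERPINB8, which did not pass, all held one or more. TATA matches stood in SERPINB2 and SERPINB8. A match is not evidence of binding, and the part of these motifs in the results was not tested.

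Of the 9 genes, 5 rose and 1 fell in CdGAP-depleted cells at an adjusted p under 0.01, and 3 did not pass. PLAU, PLAT, SERPINE2, SERPINB2 and SERPINB7 rose, SERPINB1 fell, and PLAUR, SERPINB5 and SERPINB8 did not pass. Without shCdGAP replicate 2, 7 members rose and 2 fell, and of 16727 genes tested 5013 rose and 5022 fell. Across all 16439 genes tested, 24.1% rose and 22.0% fell by the same rule, 46.2% in all. Of the members, 3, PLAT, SERPINB2 and SERPINB7, also had a log2 fold change above 1, against 8.56% of all genes, and 0 had one below -1, against 4.19%. The median log2 fold change of the members was 0.62, and that of all genes 0.01. In 8 members the 3 shCdGAP libraries lay entirely on one side of the 3 shCon libraries, where 67.1% of all genes did so, and in 6 of these the shCdGAP libraries were the higher ones, against 34.4%.

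**Figure D1:**
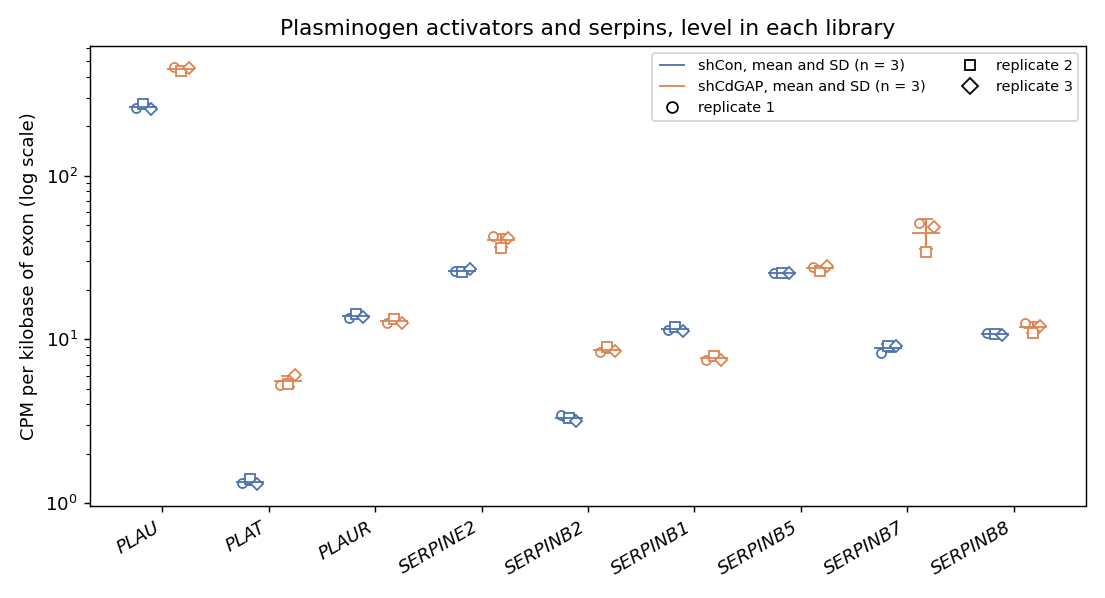
Level of the 9 genes in each library, in CPM per kilobase of exon on a log axis. Points are libraries, and bars give the mean and SD of 3. PLAU lies far above all others in both groups, and PLAT, SERPINB2 and SERPINB7 show the widest gaps between groups.

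Levels between genes are compared per kilobase of exon. The length used covers all annotated exons of a gene, 6618 bases for PLAT, and which transcripts were expressed was not examined. The order of the genes and the ratios between them depend on this length. In control cells PLAU was the highest at 263 ± 9.47 CPM per kilobase (SD, n = 3), ranking 94th to 99th of the 16439 tested genes in single libraries. SERPINE2 (26.2 ± 0.476) and SERPINB5 (25.3 ± 0.0751) followed, then PLAUR (13.8 ± 0.402), SERPINB1 (11.5 ± 0.361), SERPINB8 (10.8 ± 0.171) and SERPINB7 (8.84 ± 0.483). SERPINB2 (3.32 ± 0.144) and PLAT (1.34 ± 0.0495) were the lowest. No neighbours in this order overlapped between single shCon libraries. In CdGAP-depleted cells SERPINB7 moved up to second place at 44.8 ± 9.36 CPM per kilobase, but its libraries (34.1 to 51.4) overlapped those of SERPINE2 (36.0 to 42.9). PLAUR and SERPINB8 also overlapped there. PLAT stayed the lowest of the 9 at 5.54 ± 0.456 CPM per kilobase. Without division by length, its mean in these cells (36.7 CPM) was above those of SERPINB1 (23.6 CPM) and SERPINB2 (23.6 CPM).

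Both activator genes rose. PLAU (ENSG00000122861, GRCh38 chromosome 10 from 73909177 to 73917497) had 1359, 1291 and 1337 CPM in shCdGAP replicates 1, 2 and 3 and 763, 808 and 757 CPM in the shCon replicates. All shCdGAP libraries were far above all shCon libraries. The means were 1329 ± 34.5 and 776 ± 27.9 CPM (SD, n = 3 each). The ratio of these means was 1.71, with a log2 fold change of 0.78 ± 0.0394 (SE, adjusted p = 5.65e-07). The rank of PLAU per kilobase rose to between 43rd and 47th. PLAT (ENSG00000104368, chromosome 8 from 42175233 to 42207724) had 34.6, 35.3 and 40.1 CPM in shCdGAP libraries and 8.82, 9.24 and 8.60 CPM in shCon libraries. This 4.13-fold difference gave a log2 fold change of 2.04 ± 0.0729 (SE, adjusted p = 8.64e-08). Even so, the level of PLAU per kilobase was 81.7 ± 6.74 times that of PLAT in shCdGAP cells, compared to 196 ± 1.74 times in shCon cells (SD, n = 3 each).

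The receptor gene did not pass the test with all libraries. PLAUR (ENSG00000011422, chromosome 19 from 43646095 to 43670547) had 56.3, 59.5 and 56.0 CPM in shCdGAP libraries and 60.5, 63.7 and 60.7 CPM in shCon libraries. The shCdGAP values were all lower by a narrow margin, with a log2 fold change of -0.11 ± 0.0430 (SE, adjusted p = 0.0621), which did not pass 0.01. Without shCdGAP replicate 2 it was -0.14 and passed (adjusted p = 0.000581). The ratio of PLAU to PLAUR per kilobase was 19.0 ± 0.165 in shCon and 35.1 ± 2.02 in shCdGAP cells (SD, n = 3 each), and these groups did not overlap. The ratios between members were chosen after the values were seen and carry no test, since with 3 libraries a group the smallest two-sided p of an exact permutation is 0.1. They describe RNA, and neither protein nor protease activity was measured in these files.

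SERPINB2 and SERPINE2, which encode inhibitors of plasminogen activators, both rose. SERPINB2 (ENSG00000197632, chromosome 18 from 63871692 to 63903890) encodes plasminogen activator inhibitor type 2, an inhibitor of uPA. It had 23.01, 24.6 and 23.2 CPM in shCdGAP libraries and 9.53, 9.05 and 8.75 CPM in shCon libraries. The groups were tight and well apart, with a 2.59-fold difference and a log2 fold change of 1.37 ± 0.0631 (SE, adjusted p = 3.18e-07). Of its exon bases, 19.9% are shared on the same strand with SERPINB10, where reads are not counted for either gene, and SERPINB10 itself had 7 reads in all libraries together. SERPINE2 (ENSG00000135919, chromosome 2 from 223975112 to 224039319) encodes protease nexin-1, an inhibitor of thrombin, uPA and plasmin. Its shCdGAP libraries held 382, 320 and 370 CPM and its shCon libraries 232, 229 and 237 CPM. Replicate 2 was the lowest shCdGAP value but stood above every control, and the log2 fold change was 0.62 ± 0.0616 (SE, adjusted p = 3.84e-05).

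The other clade B serpins among the members went different ways. SERPINB7 (ENSG00000166396, chromosome 18 from 63752935 to 63805376) encodes megsin, described in kidney mesangial cells and in the epidermis, where its loss causes a palmoplantar keratosis. It had 136, 89.8 and 129 CPM in shCdGAP libraries and 21.8, 23.9 and 24.2 CPM in shCon libraries. This was the largest difference among the 9 genes, 5.07-fold, with a log2 fold change of 2.34 ± 0.167 (SE, adjusted p = 4.46e-05). It also had the widest spread, with a coefficient of variation of 20.9% over the shCdGAP libraries, with replicate 2 the lowest. Without that library the log2 fold change was 2.499. SERPINB1 (ENSG00000021355, chromosome 6 from 2832332 to 2842006) encodes an inhibitor of neutrophil elastase and related proteases. It had 23.3, 24.5 and 23.1 CPM in shCdGAP libraries and 35.5, 36.9 and 34.7 CPM in shCon libraries. The mean fell by 33.8%, with a log2 fold change of -0.59 ± 0.0494 (SE, adjusted p = 1.14e-05), and SERPINB1 was the only member that fell with all 6 libraries.

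SERPINB5 (ENSG00000206075, chromosome 18 from 63476761 to 63505085) encodes maspin, a serpin without known inhibitory activity that has been described as a tumor suppressor in breast and prostate. It had 109, 103 and 110.4 CPM in shCdGAP libraries and 99.5, 99.5 and 100.003 CPM in shCon libraries. The groups did not overlap, but the log2 fold change was only 0.11 ± 0.0381 (SE, adjusted p = 0.0377). SERPINB8 (ENSG00000166401, chromosome 18 from 63969925 to 64005667), which encodes an inhibitor of furin, had 63.0, 54.5 and 60.4 CPM against 54.8, 53.8 and 53.1 CPM. Here replicate 2 of shCdGAP lay among the controls, and the log2 fold change was 0.14 ± 0.0557 (SE, adjusted p = 0.0611). Without that library SERPINB5 had a log2 fold change of 0.13 (adjusted p = 0.000204) and SERPINB8 of 0.19 (adjusted p = 1.81e-05), so both then passed at these small sizes. Of the exon bases of SERPINB8, 7.40% are shared with HMSD on the same strand.

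**Figure D2:**
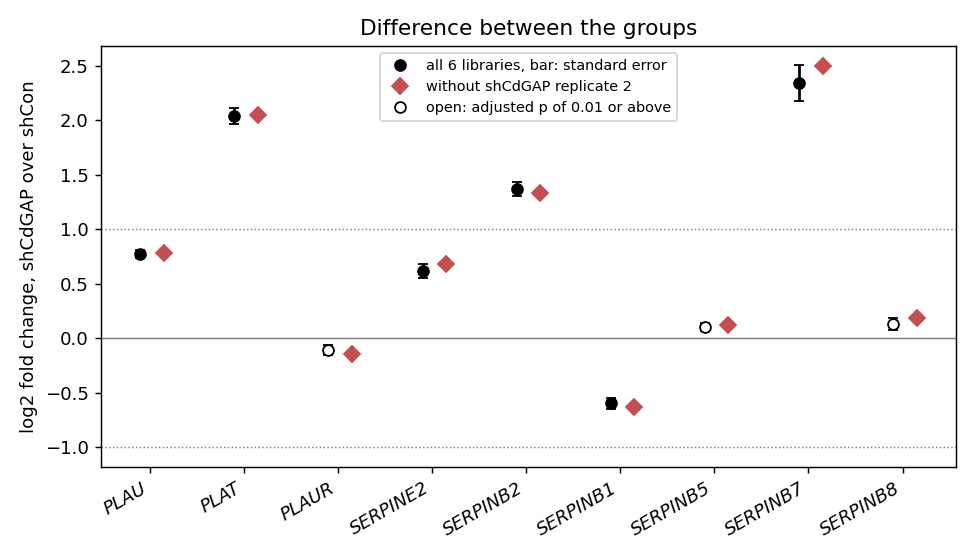
Log2 fold change of the 9 genes, shCdGAP over shCon. Circles with standard error bars use all 6 libraries, diamonds leave out shCdGAP replicate 2, open symbols did not pass an adjusted p of 0.01, and dotted lines mark a log2 fold change of 1 in either direction. The open circles of PLAUR, SERPINB5 and SERPINB8 lie close to 0 and become filled diamonds at nearly the same place.

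The pull of shCdGAP replicate 2 differed between members. Among the 3 shCdGAP libraries it was the nearest to the shCon mean for 7 of the 9 genes, where it was so for 38.3% of all 16439 genes tested. Of the 3 members past both thresholds it was the nearest for 1, SERPINB7, and of all 2096 such genes for 41.7%. Measured from the shCon mean, it reached 7.49% of the distance of replicates 1 and 3 for SERPINB8, 33.7% for SERPINB5 and 38.4% for PLAUR. For SERPINB7 and SERPINE2 it reached 61.1% and 61.3%. For PLAU, PLAT and SERPINB1 it lay between 89.4% and 92.9%, and for SERPINB2 it went beyond them at 111%. The rise of PLAU, PLAT and SERPINB2 was therefore present at nearly full size in each shCdGAP library.

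Position was not used to choose the genes. SERPINB2, SERPINB5, SERPINB7 and SERPINB8 lie in a cluster of 10 clade B serpin genes spanning 529 kilobases of chromosome 18. In order along the chromosome, the tested serpin genes were SERPINB5 (log2 fold change 0.11), SERPINB4 (0.90, adjusted p = 0.000193), SERPINB3 (-0.003, adjusted p = 0.988), SERPINB7 (2.34), SERPINB2 (1.37) and SERPINB8 (0.14). HMSD, between SERPINB2 and SERPINB8, had 0.37 with all 6 libraries (adjusted p = 0.00611). The other clade B genes of the cluster, SERPINB10, SERPINB11, SERPINB12 and SERPINB13, had at most 3 reads in any library. The log2 fold changes were thus largest at SERPINB7 and SERPINB2 and small at both ends of the cluster, as the map of the cluster shows. The pattern was uneven, since SERPINB3, between SERPINB4 and SERPINB7, stayed near 0. SERPINB3 and SERPINB4 are near-identical copies that share 405 exon bases on one strand in the annotation. Reads that fit both go uncounted under the counting options given below, so their values are uncertain. With their counts summed as 1 gene, they had a log2 fold change of 0.26 (adjusted p = 0.184), but the sum does not restore uncounted reads. Without shCdGAP replicate 2, SERPINB3 had a log2 fold change of 0.17 (adjusted p = 0.00238) and SERPINB4 of 1.02 (adjusted p = 2.86e-19), which is past the fold threshold. SERPINB1 lies in another cluster, of 3 genes over 140 kilobases of chromosome 6, with SERPINB6 (log2 fold change -0.31, adjusted p = 0.000159) and SERPINB9, which had too few reads to be tested. SERPINB1 and SERPINB6, the tested genes there, both fell.

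**Figure D3:**
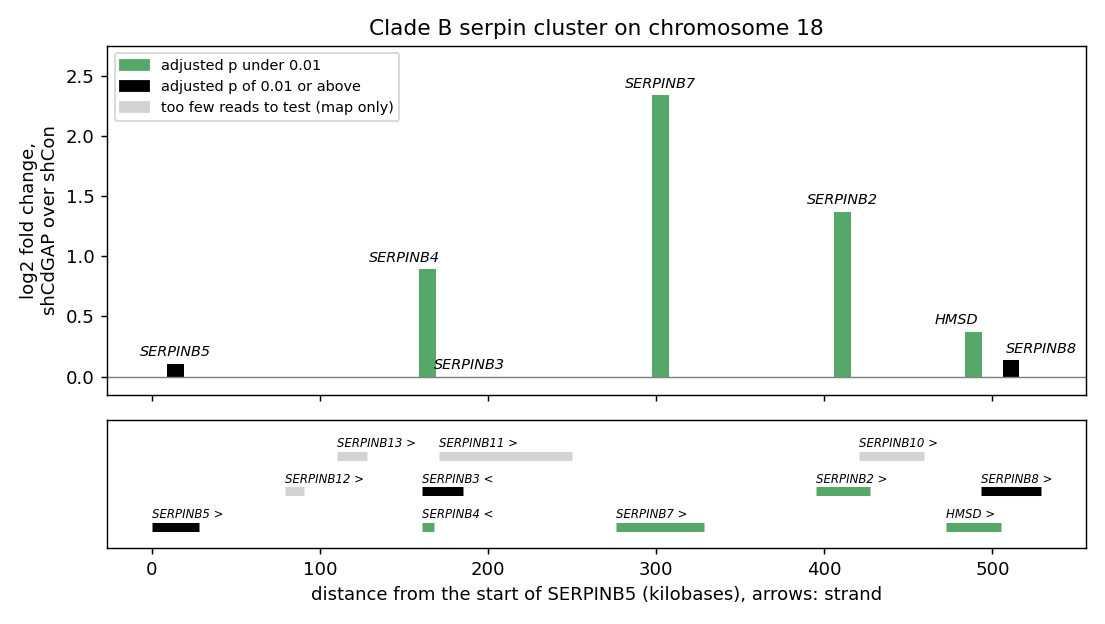
Log2 fold change of the clade B serpin genes and HMSD on chromosome 18, placed by distance from the start of SERPINB5 in kilobases, with a map of the genes underneath. Green bars passed an adjusted p of 0.01, black ones did not, and grey genes had too few reads. The tallest bars are SERPINB7 (2.34) and SERPINB2 (1.37), and the bar of SERPINB3 is too short to see.

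The surroundings of the members were examined in the 10 tested genes on each side. For PLAT, SERPINE2, SERPINB1, SERPINB2 and SERPINB7 the neighbours had median log2 fold changes between -0.09 and 0.13, far from the members' own values. PLAUR and SERPINB5 had neighbours with medians of -0.06 and 0.07, close to their own small differences. Around SERPINB8, 9 of 20 neighbours rose and 2 fell, with a median of 0.36, above the 0.14 of SERPINB8 itself and the 0.09 of the 251 tested genes of chromosome 18. These neighbours include genes of the same cluster, among them SERPINB7, SERPINB2 and SERPINB4, which rose. By the same rule 24.1% of all 16439 genes tested rose and 22.0% fell. Around PLAU, 13 of 20 neighbours rose and 0 fell, with a median log2 fold change of 0.44, while the 624 tested genes of chromosome 10 had a median of 0.06. The following neighbours were named after their values were seen. VCL, which encodes the focal adhesion protein vinculin, had a log2 fold change of 0.62 (adjusted p = 7.02e-07) and ZNF503 of 0.95 (adjusted p = 7.36e-07). C10orf55, which overlaps PLAU on the opposite strand, had 0.81 (adjusted p = 5.38e-05). Counting was set to use strand, but the kit named in the methods is not said to mark it, so reads of these genes may not be fully separated. The part of this neighbourhood in the rise of PLAU was not tested.

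For the 3 members past both thresholds, the genes with the most similar profile over the 6 libraries were sought by Pearson's r of log2 CPM among the 10281 genes whose average log2 CPM was 3 or more. They included CDA and PGM3 for PLAT and were TUBB4A, CCDC92 and TMEM54 for SERPINB2 and RND3, IFIH1 and CDKN1A for SERPINB7, with r between 0.9995 and 0.9998. All 6 points share the division into groups, and between 16.3% and 18.1% of the compared genes reached an r of 0.95 with each member, so the likeness is a description of 6 libraries only.

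Of 17 other genes of the plasminogen system, 10 could be tested. Of these, 3 rose and 1 fell, against 24.1% and 22.0% of all genes tested. LRP1 and HGF also passed the fold threshold, and LRP1 was just below it without shCdGAP replicate 2 (log2 fold change 0.987). LRP1, the endocytic receptor that clears complexes of uPA with its inhibitors from the cell surface, rose from 59.5 ± 1.94 to 129 ± 19.3 CPM (SD, n = 3 each), and its log2 fold change was 1.12 ± 0.0991 (SE, adjusted p = 4.06e-05). HGF, a growth factor whose precursor can be cut by uPA, had 175, 212 and 166 reads in shCdGAP and 4, 1 and 2 reads in shCon libraries (adjusted p = 1.99e-07). The rise of MRC2, a collagen receptor that associates with the urokinase receptor, had a log2 fold change of 0.46 (adjusted p = 0.00162), and the fall of S100A10, a plasminogen-binding protein of the cell surface, of -0.18 (adjusted p = 0.00654). MRC2 did not pass without shCon replicate 2 (log2 fold change 0.42, adjusted p = 0.0117). S100A10 no longer passed in 7 of 14 alternatives, with adjusted p up to 0.0257. PLG, the gene of plasminogen itself, had no read in any library, and the same held for VTN, SERPINA5 and CPB2. Without shCdGAP replicate 2, 5 of these genes rose and 2 fell, with 1 higher past both thresholds, and without any other single library 0 fell. The median log2 fold change of the 10 genes was 0.23.

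Of 24 other serpin genes, 8 could be tested, and 14 had at most 3 reads in every library. SERPINB4, SERPINA1, SERPINA6 and SERPINH1 rose, SERPINB6 and SERPINF1 fell, and SERPINB3 and SERPIND1 did not pass. Those 4 rises and 2 falls among 8 genes stand against 24.1% and 22.0% of all genes tested. SERPINA1, which encodes alpha-1-antitrypsin, had 97.0, 149 and 92.7 CPM in shCdGAP libraries and 9.01, 8.39 and 7.99 CPM in shCon libraries. This was the largest rise among serpins expressed in both groups, with a log2 fold change of 3.74 ± 0.228 (SE, adjusted p = 3.32e-05). SERPINA6, which encodes corticosteroid-binding globulin and lies near SERPINA1 on chromosome 14, had 56, 118 and 46 reads in shCdGAP and 2, 0 and 0 in shCon libraries (adjusted p = 5.86e-05). SERPINF1, the gene of pigment epithelium-derived factor, was low in both groups, with 4, 4 and 2 reads against 12, 19 and 14 (adjusted p = 0.00126). SERPINH1, a collagen chaperone, had a log2 fold change of 0.31 (adjusted p = 0.00761), which did not pass with the replicate number as a block (adjusted p = 0.0176) or without any single library other than shCdGAP replicate 2 (adjusted p from 0.0208 to 0.0469). SERPIND1, the gene of heparin cofactor, had a log2 fold change of -1.21 (adjusted p = 0.0139) with all libraries and -1.65 (adjusted p = 6.14e-26) without shCdGAP replicate 2. The median log2 fold change over the 8 genes was 0.15.

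Of 19 cell-surface serine proteases, Kunitz-type inhibitors and coagulation receptors, 13 could be tested. Of these, 6 rose and 3 fell, against 24.1% and 22.0% of all genes tested. ST14, which encodes matriptase, a membrane protease that can activate the uPA precursor, had 22.9, 35.1 and 22.7 CPM in shCdGAP and 1.79, 2.09 and 1.82 CPM in shCon libraries. Its log2 fold change was 3.82 ± 0.217 (SE, adjusted p = 4.63e-06). SPINT1 and SPINT2, the Kunitz inhibitors of matriptase, had log2 fold changes of -0.06 and -0.004 and did not pass (adjusted p = 0.670 and 0.978). Both fell without shCdGAP replicate 2, with log2 fold changes of -0.22 (adjusted p = 2.73e-07) and -0.14 (adjusted p = 3.75e-05), and in other alternatives their sign changed. TFPI2, another Kunitz-type inhibitor of the list, rose with a log2 fold change of 0.91 (adjusted p = 0.000116). F3, the gene of tissue factor, and PRSS23 rose with log2 fold changes of 1.03 (adjusted p = 0.000132) and 1.01 (adjusted p = 8.57e-06), while F2R, the gene of a thrombin receptor, fell from 311 ± 3.58 to 102 ± 11.4 CPM (SD, n = 3 each, log2 fold change -1.61, adjusted p = 4.54e-07). Values of F3 and PRSS23 lie so near a log2 fold change of 1 that they fell below it in some alternatives, to 0.87 and 0.94. FURIN, which encodes the target of the protein of SERPINB8 and was named after its value was seen, had a log2 fold change of -0.45 (adjusted p = 0.00924) and did not pass in 8 of 14 alternatives. Without shCdGAP replicate 2, 6 genes of this list fell, and 1 was higher past both thresholds, as was also the case without shCon replicate 1. The median log2 fold change over the 13 genes was 0.69.

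**Figure D4:**
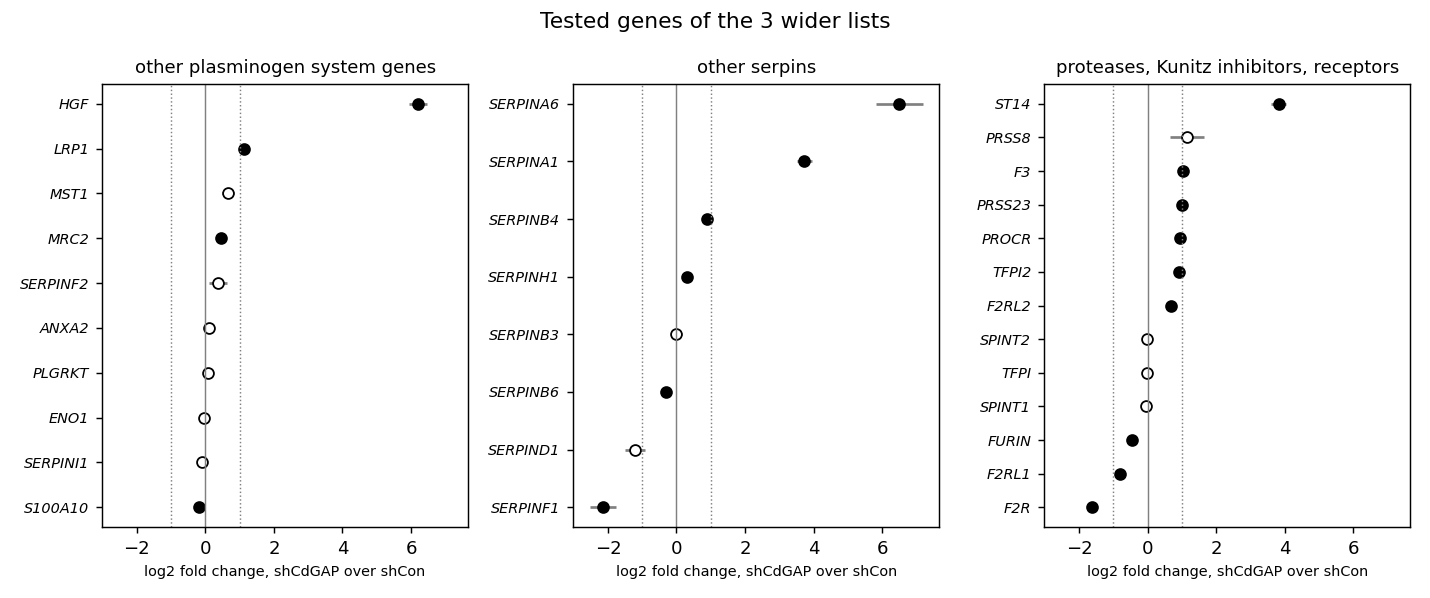
Log2 fold change with standard error of every tested gene of the 3 wider lists, shCdGAP over shCon. Filled points passed an adjusted p of 0.01 and dotted lines mark a log2 fold change of 1 in either direction. HGF and SERPINA6, with 0 to 4 reads in shCon libraries, stand at the top with values that depend on the fit, and most other genes lie between the dotted lines.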

How the data were processed

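For each library the authors deposited 1 table of raw read counts by gene, neither normalized nor pooled. Per the file headers, reads aligned to GRCh38 were counted with featureCounts 1.6.0 on Ensembl release 77, by strand, for read pairs mapped at both ends, while the methods name version 1.4.6 and a single-read kit. The aligner was STAR 2.5.1b per the submitters. With these options a read that aligns to several places, or lies in exons of several genes on its strand, goes uncounted. The exon length in the deposited tables gave CPM per kilobase.

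Tests used edgeR 4.0.16 under R 4.3.3. Genes were kept by filterByExpr and libraries scaled by TMM, then glmQLFit (robust, without a block) and glmQLFTest were run, and p-values of 16439 genes were adjusted by Benjamini-Hochberg. The standard error (SE) was derived from the F statistic, as the size of the log2 fold change over the root of F. CPM were scaled by TMM-adjusted totals. Depth was 33182796 to 43154039 reads. The thresholds were an adjusted p under 0.01 and, for the larger calls, an absolute log2 fold change above 1. Nothing in the labels says that the samples are separate cultures, although the methods call them independent, so p-values measure the spread between these samples.

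Same-numbered libraries deviated together only weakly from their group means (correlations 0.122, 0.125 and 0.117 over genes). Pairs with different numbers had correlations between -0.204 and 0.103, so a pairing is uncertain. A fit with the replicate number as a block was therefore computed beside the main fit. Scripts were tested on simulated data. Members and lists were chosen with earlier results of these data known. Named genes are the 9 members, ARHGAP31, the genes of the wider lists past both thresholds, at most 5 in each direction, and the 3 genes most like each such member. Some genes of the lists and of this rule are not reported here, and the counts leave out those of the lists. Any other gene was named after its value was seen. Alternatives were DESeq2 1.42.0, scaling by upper quartile or by library size, a stricter and no filter, an adjusted p under 0.05, a fit that is not robust, and each library left out. Symbols came from a name table that matched 56105 of 64253 genes. Promoters came from RefSeq tables, matched for 8 of 9 members, and PLAT has no sequence shown here.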

Additional observations from a re-analysis of the deposited data

How the results depend on the processing

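The log2 fold changes of PLAU, PLAT, SERPINE2, SERPINB1, SERPINB2, SERPINB7 and ARHGAP31 kept their direction and their side of 0.01 in all 14 alternatives. They ranged from 0.74 to 0.80 for PLAU, from 1.96 to 2.07 for PLAT, from 0.56 to 0.68 for SERPINE2, from -0.63 to -0.57 for SERPINB1, from 1.33 to 1.398 for SERPINB2 and from 2.22 to 2.499 for SERPINB7. With single libraries left out, PLAUR lay between -0.143 and -0.095, SERPINB5 between 0.076 and 0.126 and SERPINB8 between 0.079 and 0.185, and each passed only without shCdGAP replicate 2. SERPINB5 (0.11) also passed at an adjusted p under 0.05. With the replicate number as a block, 5 members rose and 1 fell as before, SERPINB7 having a log2 fold change of 2.32 (adjusted p = 0.000234), SERPINH1 no longer passed, 4 other plasminogen system genes rose against 3, and the pairing changed no other call among the genes refitted, which leave out HMSD, KRT8, KRT18, TEK and the genes named for likeness.

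With single libraries left out, 1 to 2 members fell, 2 to 5 other plasminogen system genes rose, 1 to 2 of them past both thresholds, and 0 to 2 fell, 1 to 2 other serpins were lower past both thresholds, and of the proteases, inhibitors and receptors 1 to 4 were higher past both thresholds and 2 to 6 fell. In the plasminogen system 5 genes rose under library-size scaling and at an adjusted p under 0.05, 1 was higher past both thresholds with at least 10 reads in every library, and 0 fell under library-size scaling and with at least 10 reads in every library, against 1. With at least 10 reads in every library, 1 other serpin rose past both thresholds, 1 fell and 0 fell past both, because fewer genes were tested. Lower serpins past both thresholds numbered 2 with DESeq2, at an adjusted p under 0.05 and without the robust option, the additional gene being SERPIND1. SERPINB3 changed sign, to 0.008 under upper-quartile scaling, 0.022 under library-size scaling, 0.005 with at least 10 reads in every library and from -0.134 to 0.169 with single libraries left out, and was 0.256 summed with SERPINB4, an alternative chosen after seeing the data. SPINT2 changed sign to 0.008 under upper-quartile scaling, 0.022 under library-size scaling, 0.001 without a filter and 0.006 with at least 10 reads in every library, and with single libraries left out it lay between -0.140 and 0.052 and SPINT1 between -0.216 and 0.012. The causes of the other shifts were not tested. Median log2 fold changes of all genes lay between -0.005 and 0.034 under all settings.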
